A study of Bos taurus with 12 samples.

Results

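The insulin-like growth factor (IGF) family was described in the endometrium of cattle on Day 15 of the estrous cycle. The genes were chosen by name from the annotation of the array: the ligands IGF1 and IGF2, the receptors IGF1R and IGF2R, and the binding proteins IGFBP1 to IGFBP6. All 10 were measured, among 17628 genes that could be named, by 26 probes for 13 of the 26323 transcripts on the array. The old females (OF, n = 4) were nulliparous and 13 to 14 years old, and the young females (YF, n = 4) were primiparous, 4 to 5 years old and biopsied more than a year after calving. All OF and YF were Holstein somatic clones of 1 donor cow, so they shared 1 nuclear genome, and age and parity cannot be told apart in any comparison between them. The study also held 4 contemporary cows, for which neither age, parity nor clonal origin is stated. The labels set aside 1 of them, animal 1111, because its phenotype diverged, and the other 3 were compared. The OF and YF had their cycles synchronised and were biopsied in the uterus. RNA of every cow, from Day 15, was hybridised in 1 colour to an array of its own. The replicate is the animal.

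IGF1 and IGF2 are secreted growth factors that signal to cell growth and survival through the receptor IGF1R, while IGF2R takes up IGF2 and delivers it to lysosomes. The binding proteins hold the ligands outside the cell, extend their life in blood and tissue fluid, and restrain or aid their access to the receptor. In the ruminant uterus IGFBP1 is a secretory product of the luminal epithelium that rises with progesterone and is known as a marker of receptivity to the conceptus, which itself elongates around Day 15.

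Each gene was read by 2 probes of 60 bases per transcript. Probes are shown for 3 of the binding proteins that the results turn on, because they are what the values measure and because they show where both probes of a gene read the same stretch. They are written 5′ to 3′ as on the array, and capitals mark a run of at least 20 bases that both probes of the gene share.
IGFBP1 probe 1: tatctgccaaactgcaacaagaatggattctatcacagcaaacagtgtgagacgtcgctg
IGFBP2 probe 1: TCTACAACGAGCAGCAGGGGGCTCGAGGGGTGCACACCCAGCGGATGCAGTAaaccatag
IGFBP2 probe 2: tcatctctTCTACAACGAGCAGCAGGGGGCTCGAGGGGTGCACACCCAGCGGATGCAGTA
IGFBP5 probe 1: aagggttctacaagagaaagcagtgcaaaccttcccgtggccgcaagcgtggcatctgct
IGFBP5 probe 2: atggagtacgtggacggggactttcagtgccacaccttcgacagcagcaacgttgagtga
The probes of IGFBP2 share a run of 52 bases, so they are nearly 1 measurement made in duplicate. The same holds for IGF2, IGFBP4 and IGFBP6, whose probe pairs share runs of 42, 50 and 45 bases. The probe pairs of the other 6 genes share no run longer than 8 bases and read separate stretches of the messenger RNA.

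A level is given as the log2 of the processed intensity minus the 75th percentile of its array, so that 0 is the 75th percentile, and levels are compared between animals for the same gene, not between genes. The 75th percentile of the intensity ranged from 968 to 1597 over the 12 arrays, 71.6% to 74.9% of the probes were well above background, and 0 were saturated. All 6 epithelial, 7 stromal and 9 smooth muscle markers used to check the tissue were well above background on all 12 arrays, so that each biopsy held RNA of the endometrium and of muscle. The amount of muscle RNA was not even. The smooth muscle score, the mean log2 deviation of 9 markers from their mean over the 11 animals kept, was 3.85 in OF 2258 and 2.28 in OF 0234, and between -1.44 and 0.04 in the other 9. The epithelial score was lowest in OF 2258 (-2.12) and YF 1069 (-1.06) and lay between -0.13 and 0.79 in the rest. In a biopsy, fewer cells of a type and less RNA per cell cannot be told apart. By their labels, 4 of the arrays (OF 0245, YF 1070, YF 1072 and the contemporary cow 1111) belonged to 1 slide, here slide 1, and the other 8 to slide 2.

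Between OF and YF the largest differences in the family were those of 4 binding proteins. IGFBP1 and IGFBP2 were lower in OF, with log2 differences (OF minus YF) of -2.48 and -1.89, and IGFBP3 and IGFBP5 were higher, with 1.30 and 1.44, whereas the ligands, the receptors, IGFBP4 and IGFBP6 differed by 0.33 or less. None of these differences passed the adjusted test across all transcripts. In limma, 0 of 19755 transcripts had a Benjamini-Hochberg adjusted p of 0.05 or less, which is 0% of those tested, and each of the 10 genes had an adjusted p of 0.999. At an unadjusted limma p of 0.05, 1 of the 10 genes (IGFBP3, higher in OF) was called, against 2.42% of all transcripts (1.43% higher and 0.987% lower). The fold change rank ordering statistics (FCROS), the method of the study, which ranks each of the 16 ratios of 1 OF to 1 YF, called 4 of the 10, IGFBP1 and IGFBP2 as lower and IGFBP3 and IGFBP5 as higher in OF, against 4.94% of all 26323 transcripts (2.06% lower and 2.88% higher). Of the 4 calls, IGFBP5 was lost without OF 0234, OF 2258, YF 1072 or YF 1127. IGFBP1 was not well above background in OF 2258 and entered limma through its signal in YF alone, the group where it is higher. Without OF 0234 and OF 2258 together, the 2 animals with the highest smooth muscle score, FCROS called IGFBP3 and IGF1 and none of the other 8. The share of all transcripts called in that smaller comparison is not given, and the 4.94% does not apply to it.

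**Figure D1:**
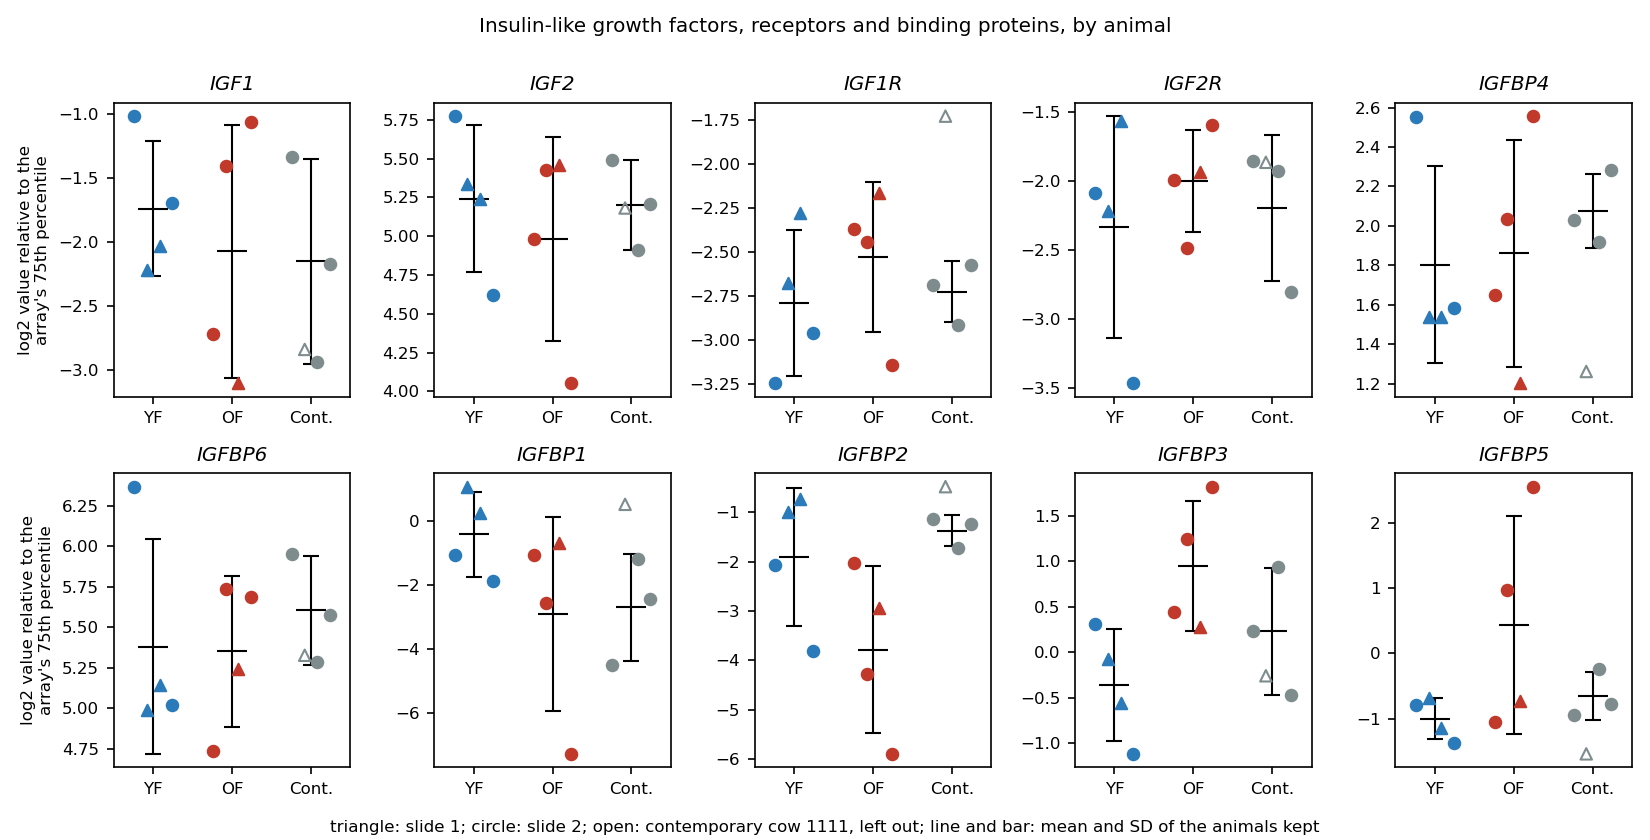
Level of each gene in each animal (log2 value relative to the 75th percentile of the array, vertical axis, scaled per gene) for YF, OF and contemporary cows (Cont.), with the mean and SD of the animals kept as line and bar, triangles for slide 1, circles for slide 2 and an open symbol for the contemporary cow 1111, which was left out. In IGFBP1, IGFBP2 and IGFBP5 the OF spread over 6.59, 3.88 and 3.60 on the log2 scale, and OF 2258 lies at the end of each range.

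**Figure D2:**
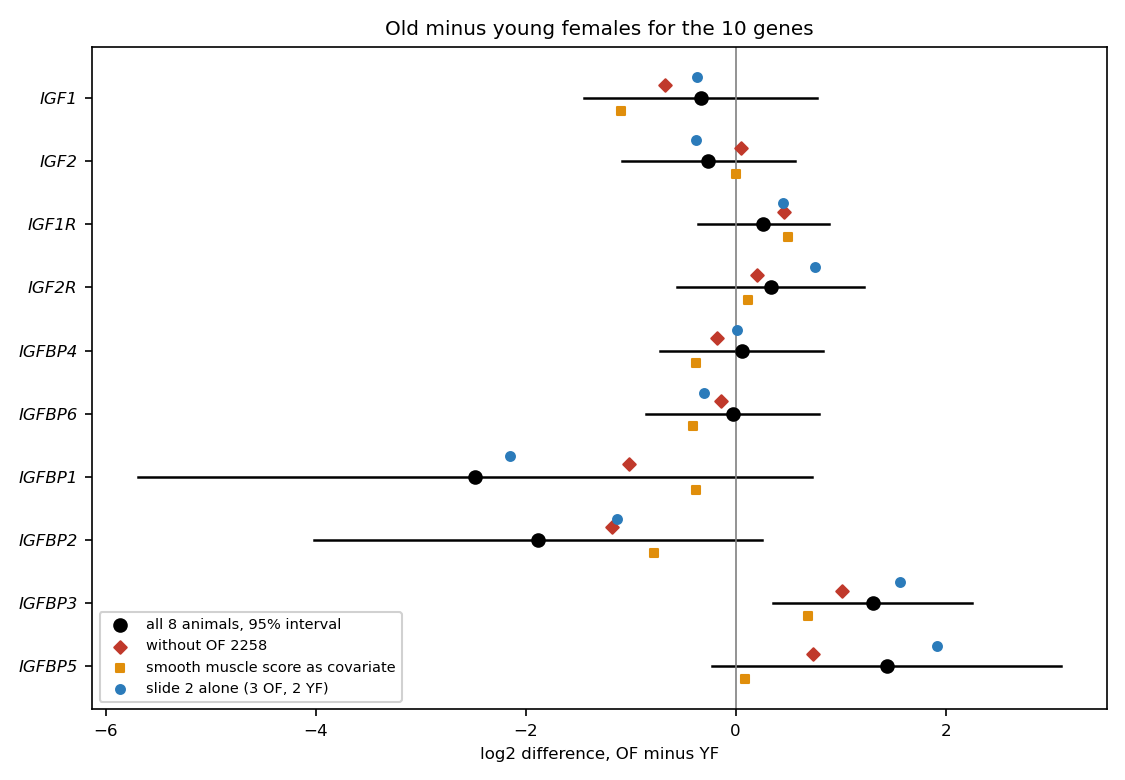
Difference in mean level between OF and YF for each gene (log2 difference, horizontal axis, 4 OF and 4 YF), with its 95% confidence interval from limma as a line, and the same difference without OF 2258, on slide 2 alone and with the smooth muscle score as a covariate. The interval excludes 0 for IGFBP3 alone, and the values with the covariate lie nearer to 0 for IGFBP1, IGFBP2, IGFBP3 and IGFBP5.

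IGF2, the ligand of fetal growth and of the conceptus, was at 5.77, 5.34, 5.24 and 4.62 in YF 1069, 1070, 1072 and 1127. In OF 0233, 0234, 0245 and 2258 it was at 4.98, 5.43, 5.46 and 4.05. OF 2258 was the lowest animal, and the other 3 OF lay within the range of the YF. The log2 difference was -0.26 with a standard error of 0.36 (limma adjusted p = 0.999, exact permutation p = 0.6, n = 4 each), and without OF 2258 it was 0.05. Another IGF2 transcript, ENSBTAT00000017372, differed by -0.37.

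IGF1, the ligand through which growth hormone acts in most tissues, was at -1.02, -2.22, -2.03 and -1.70 in YF 1069, 1070, 1072 and 1127. It was at -2.71, -1.41, -3.10 and -1.07 in OF 0233, 0234, 0245 and 2258. The OF fell on both sides of the YF, OF 0233 and 0245 below all of them and OF 0234 and 2258 among the highest. The log2 difference was -0.33 with a standard error of 0.48 (limma adjusted p = 0.999, exact permutation p = 0.571, n = 4 each). IGF1 was lower on slide 1 over the 12 arrays (slide 1 minus slide 2 of -0.92, limma unadjusted p = 0.0284, adjusted p = 0.517), and the slide as a block gave -0.59 for OF minus YF. With the smooth muscle score as a covariate it was -1.09, and without OF 0234 and OF 2258 it was -1.17. FCROS called the latter at a ratio of 0.426 to 1, with no share of all transcripts beside it. The other IGF1 transcripts on the array differed by -0.23 and -0.34, and 1 of them carries a probe of the same sequence as the transcript described here.

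IGF1R, the receptor tyrosine kinase that transmits both ligands, ranged from -3.25 to -2.28 in YF and from -3.14 to -2.17 in OF. The groups overlapped, and its log2 difference was 0.26 (95% confidence interval -0.36 to 0.88, limma adjusted p = 0.999). IGF1R was higher on slide 1 than on slide 2 by 0.69 over the 12 arrays (limma unadjusted p = 0.00285, adjusted p = 0.517), and the slide as a block gave an OF minus YF difference of 0.40. IGF2R, the mannose 6-phosphate receptor that clears IGF2, ranged from -3.47 to -1.57 in YF and from -2.49 to -1.59 in OF, with a log2 difference of 0.33 (95% confidence interval -0.56 to 1.23, limma adjusted p = 0.999). The low end of the YF was animal 1127, without which the difference of IGF2R was -0.04. Both probes of IGF2R lay at separate levels, with means in YF of -5.88 and 1.21, but gave differences of 0.35 and 0.32. The dimmer probe was well above background on 10 of the 12 arrays and counts equally in the averaged level.

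IGFBP1 (chromosome 4, 76720883 to 76725301 in UMD3.1) binds both ligands and is secreted by the uterine epithelium. Its level was -1.07, 1.08, 0.25 and -1.88 in YF 1069, 1070, 1072 and 1127. In OF 0233, 0234, 0245 and 2258 it was -1.05, -2.55, -0.68 and -7.27, and on the array of OF 2258 it was not well above background. OF 0234 and 2258 lay below all YF, and OF 0233 and 0245 lay among them. The OF had a mean of -2.88 ± 3.03 (SD, n = 4) and the YF one of -0.40 ± 1.32 (SD, n = 4), which differed on the log2 scale by -2.48 with a standard error of 1.40 (limma unadjusted p = 0.113, adjusted p = 0.999, exact permutation p = 0.171). The difference was smaller than the span of the OF, which was 6.59 on the log2 scale. It was -1.02 without OF 2258, -0.38 with the smooth muscle score as a covariate, and -1.57 after normexp background correction. The separate probes gave -2.50 and -2.46. The study also measured IGFBP1 and IGFBP2 by RT-qPCR in these and further OF and YF, and reported both as significantly lower in OF.

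IGFBP1 was also the gene of the family that varied most between cows of any group. Its lowest value over all 12 arrays, -7.27 in OF 2258, lay under the lowest signal well above background on that array (-6.37) and is no exact level. With it, IGFBP1 spanned 8.35 on the log2 scale with an SD of 2.31, above that of 99.9% of the 19991 transcripts tested over all arrays, and the other 11 animals spread from -4.48 to 1.08. The level differed between the slides. The 4 animals of slide 1 lay between -0.68 and 1.08, and the 8 of slide 2 between -7.27 and -1.05, with no overlap. The share of all transcripts without such overlap is not given. In a fit of group and slide on the 12 arrays, slide 1 was higher by 2.70 (95% confidence interval 0.41 to 5.0, limma unadjusted p = 0.0253, adjusted p = 0.517), and 9.55% of all transcripts had an unadjusted p of 0.05 or less for the slide, 0 of them after adjustment. So called in the family were IGF1, IGF1R, IGFBP1, IGFBP2 and IGFBP4. With the slide as a block the OF minus YF difference of IGFBP1 was -1.86. On slide 2 alone, with 3 OF and 2 YF, it was -2.15, and on slide 1 alone, with 1 OF and 2 YF, it was -1.34. The part of the slide in the levels of IGFBP1 was not tested beyond these values.

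IGFBP2 (chromosome 2, 105338358 to 105367369) prefers IGF2 and is made by several uterine cell types. It was at -2.06, -1.0, -0.73 and -3.81 in YF 1069, 1070, 1072 and 1127. In OF 0233, 0234, 0245 and 2258 it was at -2.02, -4.28, -2.94 and -5.90. OF 0234 and 2258 were again below all YF, and OF 0233 and 0245 lay within the range of the YF. The OF had a mean of -3.79 ± 1.69 (SD, n = 4) and the YF one of -1.90 ± 1.40 (SD, n = 4), which differed on the log2 scale by -1.89 with a standard error of 0.93 (limma unadjusted p = 0.0762, adjusted p = 0.999, exact permutation p = 0.143). The difference was -1.18 without OF 2258 and -2.52 without YF 1127. It was -0.78 with the smooth muscle score as a covariate, -1.18 after normexp background correction, -1.13 on slide 2 and -2.08 on slide 1.

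IGFBP3 (chromosome 4, 76705105 to 76712709) is the main carrier of the IGFs in blood and is made in tissue by stromal and vascular cells. It was at 0.31, -0.08, -0.56 and -1.11 in YF 1069, 1070, 1072 and 1127. In OF 0233, 0234, 0245 and 2258 it was at 0.44, 1.24, 0.28 and 1.82. Of the OF, 3 lay above all YF, and OF 0245 lay just below the highest YF. The OF had a mean of 0.95 ± 0.72 (SD, n = 4) and the YF one of -0.36 ± 0.62 (SD, n = 4), which differed on the log2 scale by 1.30 with a standard error of 0.41 and a 95% confidence interval of 0.36 to 2.25 (limma unadjusted p = 0.0129, adjusted p = 0.999, exact permutation p = 0.0571). The smallest p that 4 animals against 4 allow is 0.0286. Across the animals left out in turn the difference ranged from 1.01 without OF 2258 to 1.53 without YF 1069, and FCROS called it each time. It was 0.69 with the smooth muscle score as a covariate and 0.72 without OF 0234 and OF 2258. On slide 2 it was 1.57 and on slide 1 it was 0.60.

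IGFBP5 (chromosome 2, 105378991 to 105397646), a binding protein of connective tissue and smooth muscle, was at -0.80, -0.69, -1.15 and -1.38 in YF 1069, 1070, 1072 and 1127. In OF 0233, 0234, 0245 and 2258 it was at -1.05, 0.97, -0.74 and 2.55. OF 0234 and 2258 lay above all YF, and OF 0233 and 0245 lay within their narrow range. The OF had a mean of 0.44 ± 1.67 (SD, n = 4) and the YF one of -1.0 ± 0.32 (SD, n = 4), which differed on the log2 scale by 1.44 with a standard error of 0.73 (limma unadjusted p = 0.0812, adjusted p = 0.999, exact permutation p = 0.143). It was 0.73 without OF 2258, 0.11 without OF 0234 and OF 2258, and 0.09 with the smooth muscle score as a covariate. On slide 2 it was 1.91 and on slide 1 it was 0.18.

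The 2 OF with the highest smooth muscle score were thus the lowest OF for IGFBP1 and IGFBP2 and the highest for IGFBP3 and IGFBP5. Over the 11 animals the score correlated with IGFBP5 at a Pearson r of 0.940 and a Spearman rho of 0.445, with IGFBP3 at 0.762 and 0.473, with IGFBP1 at -0.707 and -0.382, and with IGFBP2 at -0.738 and -0.291. Without the 2 animals farthest from the median of the binding protein, r was 0.102 for IGFBP5, 0.487 for IGFBP3, -0.325 for IGFBP1 and 0.505 for IGFBP2. For IGFBP5 and IGFBP2 the animals left out were OF 2258 and OF 0234, and their relations with the score rest on those animals. For IGFBP1 the animals left out were OF 2258 and the contemporary cow 1068, and for IGFBP3 they were OF 2258 and YF 1127. OF 0234 thus stayed in for IGFBP1 and IGFBP3, and r without both of these OF is not given for them. The part of smooth muscle RNA in the differences between OF and YF was not tested beyond these values. The smooth muscle markers behind the score were higher in OF for 9 of 9, 8 of them called by FCROS, 1 at an unadjusted limma p of 0.05 and 0 after adjustment. Of all transcripts tested 51.7% were higher in OF, and 2.88% and 1.43% were called as higher by FCROS and at the unadjusted p. The epithelial score correlated with IGFBP1 at r = 0.759 and rho = 0.718 over the same animals, and at r = 0.334 without OF 2258 and the contemporary cow 1068. Outside those 2 OF, IGFBP1 was as low as -4.48 in the contemporary cow 1068 and IGFBP2 as low as -3.81 in YF 1127, animals whose smooth muscle scores were -0.33 and -1.44.

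**Figure D3:**
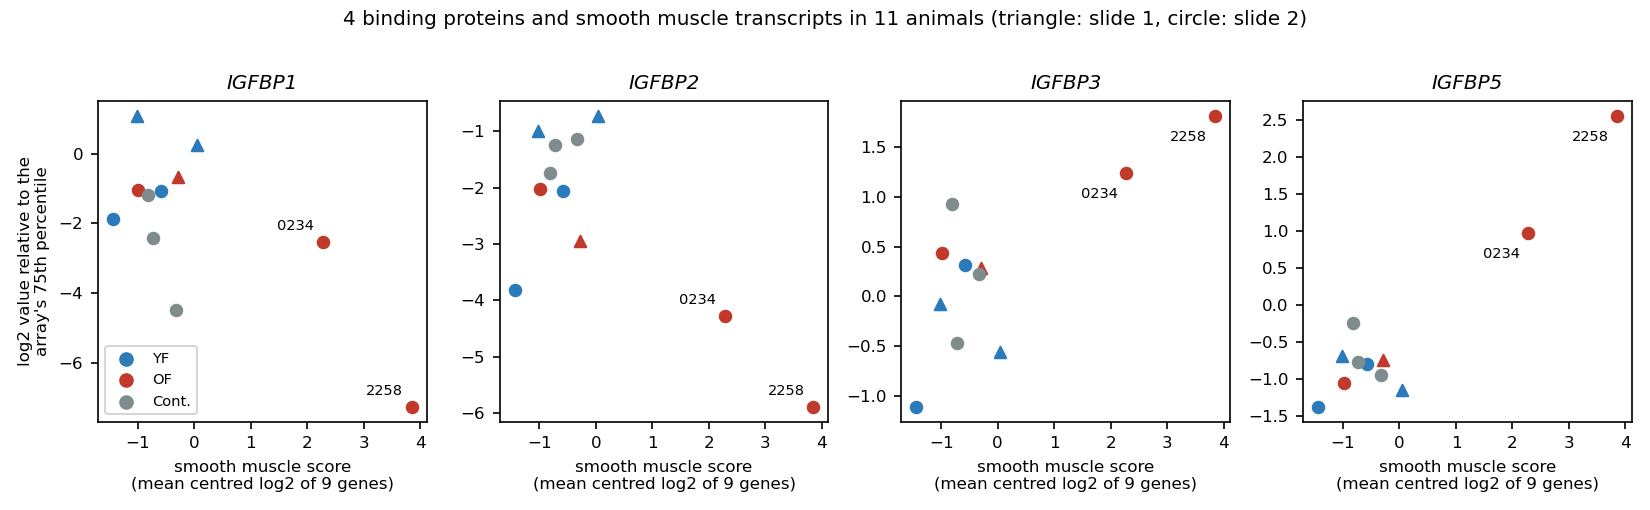
Level of IGFBP1, IGFBP2, IGFBP3 and IGFBP5 (vertical axes, log2 value relative to the 75th percentile of the array) against the smooth muscle score of the same biopsy (horizontal axis, mean centred log2 value of 9 marker genes) in 11 animals, with triangles for slide 1 and circles for slide 2. OF 0234 and OF 2258 stand apart on the right, low for IGFBP1 and IGFBP2 and high for IGFBP3 and IGFBP5, and the other 9 animals lie between scores of -1.44 and 0.04.

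These 4 genes form neighbouring pairs in the genome. IGFBP3 and IGFBP1 lie 8173 bases apart on chromosome 4, and IGFBP2 and IGFBP5 lie 11621 bases apart on chromosome 2. In each pair 1 gene was lower and its neighbour higher in OF, with differences of -2.48 and 1.30 for the first pair and -1.89 and 1.44 for the second. Across the 11 animals the neighbours IGFBP2 and IGFBP5 had a Pearson r of -0.766 and a Spearman rho of -0.382 (r = 0.304 without OF 2258 and OF 0234), and IGFBP1 and IGFBP3 had an r of -0.547 and a rho of -0.391 (r = -0.169 without OF 2258 and the contemporary cow 1068). The positive correlations within the 4 included IGFBP3 and IGFBP5 (Pearson r = 0.848, Spearman rho = 0.745, and r = 0.761 without the 2 animals farthest from the median of IGFBP3). IGFBP1 and IGFBP2 had r = 0.648 and rho = 0.518 (r = 0.620 without the 2 farthest animals). The animals share slides and tissue makeup, so these correlations are given as a description.

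IGFBP4, which restrains IGF action until it is cleaved by the protease PAPPA, was at 2.55, 1.54, 1.54 and 1.59 in YF 1069, 1070, 1072 and 1127 and at 1.65, 2.03, 1.2 and 2.56 in OF 0233, 0234, 0245 and 2258. The log2 difference was 0.06 (95% confidence interval -0.72 to 0.83, limma adjusted p = 0.999), and it turned to -0.11 in the fit with a slide block and to -0.17 without OF 2258. All 4 animals of slide 1 lay below all 8 of slide 2 for IGFBP4, at 1.2 to 1.54 against 1.59 to 2.56 (slide 1 minus slide 2 of -0.72, limma unadjusted p = 0.00698, adjusted p = 0.517). An unadjusted limma p of 0.05 or less for the slide was found for 9.55% of all transcripts. The share of all transcripts without overlap between the slides is not given. IGFBP6, which prefers IGF2, ranged from 4.99 to 6.37 in YF and from 4.74 to 5.74 in OF, with a log2 difference of -0.03 (95% confidence interval -0.85 to 0.79, limma adjusted p = 0.999). IGFBP4 and IGFBP6 varied together over the 11 animals (Pearson r = 0.770, Spearman rho = 0.736), and both correlated with the epithelial score at r = -0.852 and -0.672 (rho = -0.909 and -0.818), and with the stromal score at r = 0.870 and 0.757 (rho = 0.773 and 0.655). IGF1 correlated with the epithelial score at r = -0.758 and rho = -0.864.

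The contemporary cows share their comparisons with the same OF and YF, so the values are given side by side. For IGFBP1 they were at -4.48, -1.18 and -2.42 in animals 1068, 1128 and 1129. Animals 1068 and 1129 lay below all YF, and all 3 lay between the lowest and highest OF. The mean of -2.69 ± 1.66 (SD, n = 3) differed from that of YF by -2.29 on the log2 scale (limma unadjusted p = 0.0369, adjusted p = 0.9999, exact permutation p = 0.114), against 3.03% of all transcripts at an unadjusted p of 0.05 or less (1.29% higher and 1.75% lower), and IGFBP1 was the 1 gene of the 10 so called. None of the 10 had all contemporary cows on 1 side of all YF, as 3.83% of all transcripts did (1.51% higher and 2.32% lower). On slide 2 alone, which held all 3 contemporary cows and 2 of the YF, the difference of the means was -1.22. It was -1.40 without contemporary cow 1068, -3.04 without 1128 and -1.48 with animal 1111 included. Animal 1111, which was left out and lay on slide 1, was at 0.53.

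IGFBP2 stood the other way. The contemporary cows 1068, 1128 and 1129 were at -1.14, -1.74 and -1.24, all above all 4 OF and within the range of the YF. The mean of -1.37 ± 0.32 (SD, n = 3) was 2.41 above that of OF on the log2 scale (standard error 0.84, limma unadjusted p = 0.0226, adjusted p = 0.912, exact permutation p = 0.0571, where the smallest possible p is 0.0286), against 4.57% of all transcripts at an unadjusted p of 0.05 or less (2.59% higher and 1.99% lower) and 5.79% with no overlap between these groups (2.86% higher and 2.93% lower). IGFBP2 was the 1 gene of the 10 for either. The difference was 1.71 without OF 2258 and 1.11 without OF 0234 and OF 2258. From YF it differed by 0.53 (95% confidence interval -1.07 to 2.12), by 1.57 on slide 2 alone and by -0.11 without YF 1127. Over the 12 arrays IGFBP2 was higher on slide 1 by 1.43 (limma unadjusted p = 0.0442, adjusted p = 0.519).

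For IGFBP3 the contemporary cows were at 0.23, 0.93 and -0.47 and for IGFBP5 at -0.95, -0.25 and -0.77 in animals 1068, 1128 and 1129. Both means lay between those of YF and OF. IGFBP3 differed from YF by 0.59 and from OF by -0.72, and IGFBP5 from YF by 0.35 and from OF by -1.09, none of them past an unadjusted p of 0.05 in limma. The other 6 genes differed from YF by between -0.41 (IGF1) and 0.27 (IGFBP4) and from OF by between -0.20 (IGF2R) and 0.25 (IGFBP6). No gene of the 10 passed the adjusted p of 0.05 in either comparison, nor did any of the 19993 and 19914 transcripts tested, which is 0% in both.

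Of 50 genes that act with the family, 49 were found on the array by name and 44 were tested between OF and YF. None passed the adjusted p of 0.05, 24 were higher and 20 lower in OF, and the median log2 difference was 0.02, beside 0.01 for all transcripts tested. At an unadjusted p of 0.05 limma called 2 of the 44 as higher and 3 as lower, beside 1.43% and 0.987% of all transcripts. FCROS called 2 as higher and 2 as lower, beside 2.88% and 2.06% of all transcripts. The lower calls of both methods include IGF2BP2, which entered the limma test through its signal in YF alone.

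GRB14, an adaptor that binds activated insulin and IGF1 receptors and dampens their signal, was at -5.32, -4.26, -3.40 and -4.76 in YF 1069, 1070, 1072 and 1127 and at -3.89, -2.50, -3.31 and -0.89 in OF 0233, 0234, 0245 and 2258. Of the OF, 3 lay above all YF. The log2 difference was 1.79 with a standard error of 0.66 (limma unadjusted p = 0.0254, adjusted p = 0.999, exact permutation p = 0.0571), and 0.67 with the smooth muscle score as a covariate. FOXO1, a transcription factor that AKT holds out of the nucleus and that drives IGFBP1 in decidual cells and liver, was at -0.21, 0.51, 0.26 and -0.05 in these YF and at 0.60, 0.71, 0.59 and 1.59 in these OF. All OF lay above all YF, as for 0.931% of all transcripts, by a mean of 0.74 on the log2 scale (limma unadjusted p = 0.0233, adjusted p = 0.999, exact permutation p = 0.0286), and by 0.50 without OF 2258 and 0.41 with the covariate.

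MAPK3, a kinase of the RAS branch, was lower in all OF than in all YF, as for 0.597% of all transcripts, at -4.52, -4.49, -4.89 and -5.32 against -4.17, -4.37, -4.27 and -4.32. Its log2 difference was -0.52 (limma unadjusted p = 0.030, adjusted p = 0.999, exact permutation p = 0.0286). It was -0.353 without OF 2258 and -0.352 with the smooth muscle score as a covariate, and FCROS did not call MAPK3 (ratio 0.712). IGF2BP3 and IGF2BP2, which bind the messenger RNA of IGF2 and of other genes, were lower in OF, with log2 differences of -0.99 and -0.83 (limma unadjusted p = 0.0237 and 0.0491, adjusted p = 0.999 for both), and FCROS called both at ratios of 0.454 and 0.581. Without OF 2258 their differences were -0.92 and -0.52, and with the smooth muscle score as a covariate -1.01 and -0.30. The OF and YF overlapped for both. IGF2BP2 was well above background on 6 of the 12 arrays. It entered the limma test through its signal in YF alone, the group where it is higher. In every OF its level lay under the lowest signal well above background on that array. Neither its limma p nor its FCROS call is therefore support for a difference.

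Among the genes of the list with the next largest differences was ADAM12 (-0.58), a protease that cleaves IGFBP3 and IGFBP5. They also include PAPPA2 (-0.33), a protease of IGFBP5, STC1 (-0.30), an inhibitor of the PAPPA proteases, HTRA1 (0.33), PDPK1 (0.32), IRS2 (0.30) and AKT2 (0.29), with unadjusted limma p values from 0.118 to 0.565 among these 6 genes. HTRA1 turned to -0.15 without OF 2258 and to -0.61 with the smooth muscle score as a covariate. Leaving out 1 animal also moved the other genes of this group by over 1.5 times, to -0.24 for ADAM12 without YF 1069, to -0.12 for PAPPA2 and -0.0074 for STC1 without YF 1070, to 0.18 for PDPK1 without OF 0245, and to 0.12 for IRS2 and 0.17 for AKT2 without YF 1127. These values were computed after the data had been seen. Between contemporary cows and OF, GRB14 differed by -1.88 and STC1 by 1.04 (limma unadjusted p = 0.0239 and 0.0240, adjusted p = 0.912). STC1 differed by 0.59 without contemporary cow 1128. Those calls stand beside 1.99% of all transcripts lower and 2.59% higher in contemporary cows. Between contemporary cows and YF the related gene IGFBP7 differed by 0.60 (limma unadjusted p = 0.0214, adjusted p = 0.9999). It was the 1 gene so called of the 44 of the list tested there, beside 1.29% of all transcripts higher and 1.75% lower.

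**Figure D4:**
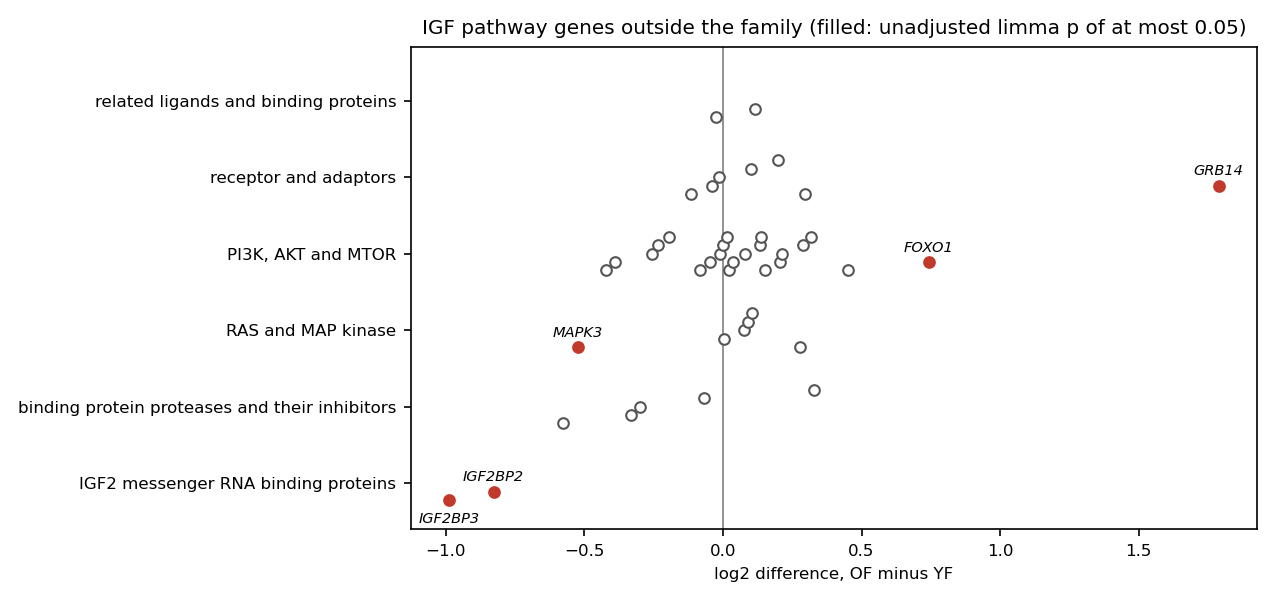
Log2 difference between OF and YF (horizontal axis) for the 44 tested genes of the IGF pathway outside the family, by role (rows; the height within a row only separates the points), filled for an unadjusted limma p of 0.05 or less. The 5 filled genes are GRB14 and FOXO1 to the right and MAPK3, IGF2BP2 and IGF2BP3 to the left.

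The genes whose levels followed the members most closely over the 11 animals were sought among 13473 genes well above background on all their arrays. For IGFBP1 they were CFTR, a chloride channel of epithelia (Pearson r = 0.982, Spearman rho = 0.964), SMPDL3B (r = 0.979) and CREG2 (r = 0.964), and without OF 2258 r was 0.964, 0.9754 and 0.945. For IGFBP2 they were ZMYND15 (r = 0.937), CDK3 and BATF, and without OF 2258 r was 0.871, 0.848 and 0.840. For IGFBP3 they were CNN2, a calponin (r = 0.931), CHD3 and a transcript annotated as U6, and for IGFBP5 DENND2B (r = 0.976), TBC1D1 and BAG2, with r between 0.911 and 0.921 without OF 2258. IGF1R was followed most closely by SALL1 (r = 0.968), GUCD1 and PDPK1, the kinase that activates AKT (r = 0.955), and IGF2R by FLOT2 (r = 0.930), ZNF358 and AKT2 (r = 0.908). For IGF1 they were LUZP1 (r = 0.955), JAZF1 and AKIP1. For IGF2 they were TPD52L2 (r = 0.960), MIR216A and UNK. For IGFBP6, ANXA13 (r = 0.964) came first. These are the highest of all correlations computed over 11 arrays that share slides, and they are given as a description.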

How the data were processed

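Endometrial RNA of 12 cows was hybridised to Agilent 1-colour arrays. Per the file headers, the authors' images were read with Feature Extraction 10.7.3.1, and the deposited processed intensity, corrected for background on a linear scale, was used here. Log2 intensity was computed from these deposited values, minus the 75th percentile of each array. Outlier spots were left out, spots were averaged per probe and probes per transcript, and each gene took its transcript of highest mean. Names and positions came from the array annotation (UMD3.1). limma 3.58.1 in R 4.3.3 was fitted across the transcripts that had, in 1 of the groups compared, a probe whose signal exceeded background on each array, with Benjamini-Hochberg adjustment. FCROS used trimmed mean ranks (0.25 at each end), f-values of 0.025 and 0.975 and a fold change of 1.5. Exact permutation tests were two-sided. The number of arrays limits the precision. The scripts were tested on simulated data. The members and gene lists were chosen with earlier results of these data known. All 10 members are named. Of the pathway list, those with an unadjusted p of at most 0.05 or an FCROS call are named, with up to the 10 next largest differences, and for each member the 3 most correlated genes were sought. Some of the genes that this rule names are not reported here. Alternatives were the normalization, background correction, centring, probe choice, dim filter, slide, samples in the fit, array weights, smooth muscle covariate, animal 1111 and each animal left out.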

Additional observations from a re-analysis of the deposited data

Results flagged for a closer look

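Of 30 sets of 4 animals tested for 1 value far from the rest (gap to the nearest animal over the range above Dixon's critical value for 4 samples), 3 passed, and chance alone passes about 1 in 20. In YF, animal 1069 was highest for IGFBP4 (2.55, next animal 1.59, gap 0.953 of the range) and for IGFBP6 (6.37, next animal 5.15, gap 0.887 of the range). The same animal had the lowest epithelial score of the YF, at -1.06. In OF, animal 2258 was highest for FOXO1 (1.59, next animal 0.71, gap 0.880 of the range).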

How the results depend on the processing

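Differences between OF and YF of IGFBP1, IGFBP2, IGFBP3 and IGFBP5 kept their direction under every alternative run, and no member passed the adjusted p in that comparison under any. Their size was not kept, and with the smooth muscle covariate they shrank to -0.38, -0.78, 0.69 and 0.09 in that order. The small differences turned. Between OF and YF, IGFBP4 was -0.11 with the slide as a block, -0.38 with the smooth muscle covariate and -0.38 without OF 0234 and OF 2258 (chosen after seeing the data). IGF2 was 0.0033 with that covariate. Array weights gave IGF1 0.30, IGF2 0.093, IGF2R -0.24 and IGFBP6 0.40. Leaving out 1 animal gave -0.67 to 0.0093 for IGF1, -0.47 to 0.048 for IGF2, -0.043 to 0.59 for IGF2R, -0.17 to 0.31 for IGFBP4 and -0.16 to 0.30 for IGFBP6. Between contemporary cows and YF, IGF2 was 0.026 after quantile normalization, 0.0052 after median centring and 0.0072 with the slide as a block, IGFBP6 was -0.088 with that block, and array weights gave IGF1R -0.19 and IGFBP2 -0.13. Leaving out 1 animal gave -0.25 to 0.14 for IGF2, -0.086 to 0.24 for IGF1R, -0.24 to 0.44 for IGF2R and -0.11 to 0.92 for IGFBP2. Between contemporary cows and OF, IGFBP1 was -0.28 after normexp, IGF1 0.24 by the brightest probe, IGFBP4 -0.0021 with the slide as a block and IGF1R 0.053 with animal 1111. Array weights gave IGF2 -0.27, IGF2R 0.23 and IGFBP6 -0.14. Without OF 0234 and OF 2258, IGF1 was 0.76, IGF2 -0.018, IGFBP1 -1.83 and IGFBP5 0.24. Leaving out 1 animal gave -0.48 to 0.31 for IGF1, -0.0021 to 0.45 for IGFBP4, -0.086 to 0.38 for IGF2, -1.27 to 1.08 for IGFBP1 and -0.37 to 0.11 for IGF2R. At an adjusted p of 0.05, transcripts between contemporary cows and YF went from 0 to 1 (quantile normalization), 2 (all 3 groups in 1 fit), 1 (array weights), 4 (animal 1111 included) and 0 to 1 (1 animal left out), and between contemporary cows and OF from 0 to 26 (array weights), 2 (animal 1111 included) and 0 to 1 (1 animal left out). FCROS calls fell from 1300 to 548 after normexp, and members called from 4 to 2 without OF 0234 and OF 2258, for which no share of all transcripts is given. The cause was not tested. No paired analysis was possible because the groups share no replicate numbers. Low signal limits IGFBP1 in OF 2258 and IGF2BP2.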
